A study of Homo sapiens with 6 samples.

Results

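The genes described here are the interferon-response genes on a whole-genome expression array: those whose name on the array begins with IFI, IFIT, ISG, OAS, GBP or IRF, together with MX1 and MX2. The rule gave 44 genes out of 17483 named genes with a usable probe, and they were covered by 60 probes. It used names alone and no measured value. A name is not a function, so the set also holds genes that share only a prefix. IFITM5 is known as a bone-restricted relative of the antiviral IFITM proteins, IFITM4P is a pseudogene, and IRF2BP1, IRF2BP2, ISG20L2 and AEN (ISG20L1 on the array) are not classical interferon targets.

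The arrays measured RNA of HepG2, an established line of human hepatoma cells that resemble hepatocytes, after exposure to an extract of the medicinal plant Scutellaria baicalensis. There were 6 one-colour arrays, each of 1 sample. The control array held RNA of control HepG2 cells, and the other 5 held RNA of the same line given 100 µg/ml of extract and collected 1, 3, 6, 12 or 24 h later. The labels give no genetic alteration for any group, no vehicle for the control and no time for it, and a control of the same age as each later sample is not analysed here. Each group held 1 array, so the spread between replicates is unknown and single times carry no p-value.

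Interferons are secreted proteins that bind paired receptors on the cell surface, and the receptors act through JAK kinases and STAT transcription factors. Type I and type III interferons lead to a complex holding STAT2 and IRF9 that binds the interferon-stimulated response element, a repeated GAAA-type sequence in promoters. The genes switched on this way block viral entry (IFITM), viral RNA (IFIT, OAS) or viral assembly and transport (MX, GBP, ISG15), and hepatocytes, a target of hepatitis viruses, can mount this response.

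The promoters of several of these genes show that element, and the following stretches are printed because their genes include members that lay apart from the control and members that did not. The motif searched was GAAA, any 2 bases and GAAA again, 10 bases in all. Capitals mark every match on either strand, where the reverse complement reads TTTC, any 2 bases and TTTC, and matches that overlap run together. Each stretch lies upstream of the annotated transcription start, within its gene's promoter, and is written 5′ to 3′ on the gene's strand from RefSeq sequence of GRCh38.p14. ISG15 is at chr1:1013374-1013409 on the plus strand, IFI6 at chr1:27672266-27672358 on the minus strand, IFIT1 at chr10:89392497-89392539 on the plus strand, IFI27 at chr14:94110618-94110660 on the plus strand and IFIT5 at chr10:89414513-89414567 on the plus strand.
ISG15: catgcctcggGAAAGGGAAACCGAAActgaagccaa
IFI6: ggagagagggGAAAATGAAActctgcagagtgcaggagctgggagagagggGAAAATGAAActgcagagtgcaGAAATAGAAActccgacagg
IFIT1: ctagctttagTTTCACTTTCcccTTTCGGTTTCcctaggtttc
IFI27: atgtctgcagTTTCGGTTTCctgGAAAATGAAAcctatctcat
IFIT5: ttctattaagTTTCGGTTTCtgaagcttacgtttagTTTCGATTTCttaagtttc

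The stretch of IFI6 holds 3 matches and the other 4 stretches hold 2 each. In the window from 250 bases before to 50 bases after the start, 17 of the 32 members with a promoter entry (53.1%) had at least 1 match. Counted the same way, 4.38% of all 27305 genes with an entry had one, as did 3.57% of the 35116 single promoters. No promoter entry was matched for OAS2, IRF3, IFITM4P, GBP2, IFITM2, MX2, IRF2, IRF7, GBP5, IFIT2 and OASL, among the 12 members without one. A match is a description of the letters and was not measured as a binding site here.

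Levels are given as the log2 processed signal of a probe minus the array's 75th percentile of it, so that 0 is the signal of a probe brighter than 75 of 100 probes on its array, and a difference of 1 is 2-fold. The brightest probe of a gene by mean level stands for it, and a difference was taken only where that probe was well above background on both arrays and saturated on neither. Brightness varied between the arrays. The signal at the 75th percentile came to 693 units for the control and to 983, 1700, 139, 374 and 1460 units after 1, 3, 6, 12 and 24 h, and 49.5% of probes were well above background on the 6 h array against 69.8% on the control array. Whether that brightness had a part in the differences of the 6 h and 12 h arrays was not tested. Pairs of probes for the same gene gave the error of a difference read from 1 probe, as an SD of 0.35, 0.44, 0.77, 0.68 and 0.69 after 1, 3, 6, 12 and 24 h. This single-probe SD covers noise that differs between the probes of a pair. Noise of an array that both probes share cancels out of it, and it holds no variation between cultures. The hepatocyte markers (10 of 10, among them ALB and APOA1) were well above background on all 6 arrays. Of the markers of other cells, 4 of 8 haematopoietic, 1 of 5 endothelial and 0 of 6 fibroblast or stellate genes were above background on every array, and CDH5, KDR, TEK, COL1A1, COL3A1 and LUM on none. The summed signal of the haematopoietic list, in units of the 75th percentile, was 8.16 in the control and between 5.42 and 11.1 in the treated arrays, and its part in the differences was not tested.

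Of the 44 genes, 26 had a brightest probe well above background on all 6 arrays (59.1%, against 61.5% of all named genes), 13 on 1 to 5 arrays and 5 on none. GBP5, IFI16, IFI44 and IRF8 were among the last, which were not well above background. No member probe was saturated on any array. By any of its probes, 35 of the 44 genes were detected in the control, and 36, 36, 28, 31 and 34 after 1, 3, 6, 12 and 24 h. The shares of members detected followed those of all named genes, which were 77.7% in the control and 62.5% at 6 h.

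The members lay on both sides of the control, and most lay near it. At 1 h, 2 of the 34 members measured exceeded the control by at least 2-fold, against 2.24% of all measured genes, and 1 was at least 2-fold lower, against 0.663%. At 3 h the counts were again 2 higher and 1 lower of 34, beside 3.24% and 2.96% of all genes. At 6 h, 2 of 27 members were higher and 6 lower (22.2%), where all genes gave 22.9% higher and 10.0% lower. The 12 h array had 1 of 31 members higher and 4 lower, against 13.1% and 7.81% of genes. After 24 h, 1 of 33 was higher and 5 were lower, against 7.29% and 9.29%. The members' share of higher calls therefore lay under that of all genes at 6, 12 and 24 h, and their share of lower calls above it. The counts depended on the processing, with 4 members higher and 2 lower at 12 h under the normexp background correction, and 3 lower at 6 h in the authors' deposited value table.

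The median difference of the members from the control was 0.00, -0.16, 0.16, -0.02 and -0.29 on the log2 scale after 1, 3, 6, 12 and 24 h. Over all measured genes it was -0.06, -0.04, 0.34, 0.23 and 0.02 at the same times. The members' median minus that of all genes was 0.06, -0.13, -0.19, -0.24 and -0.32. These values describe the arrays, and nothing particular to the set is read from them.

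**Figure D1:**
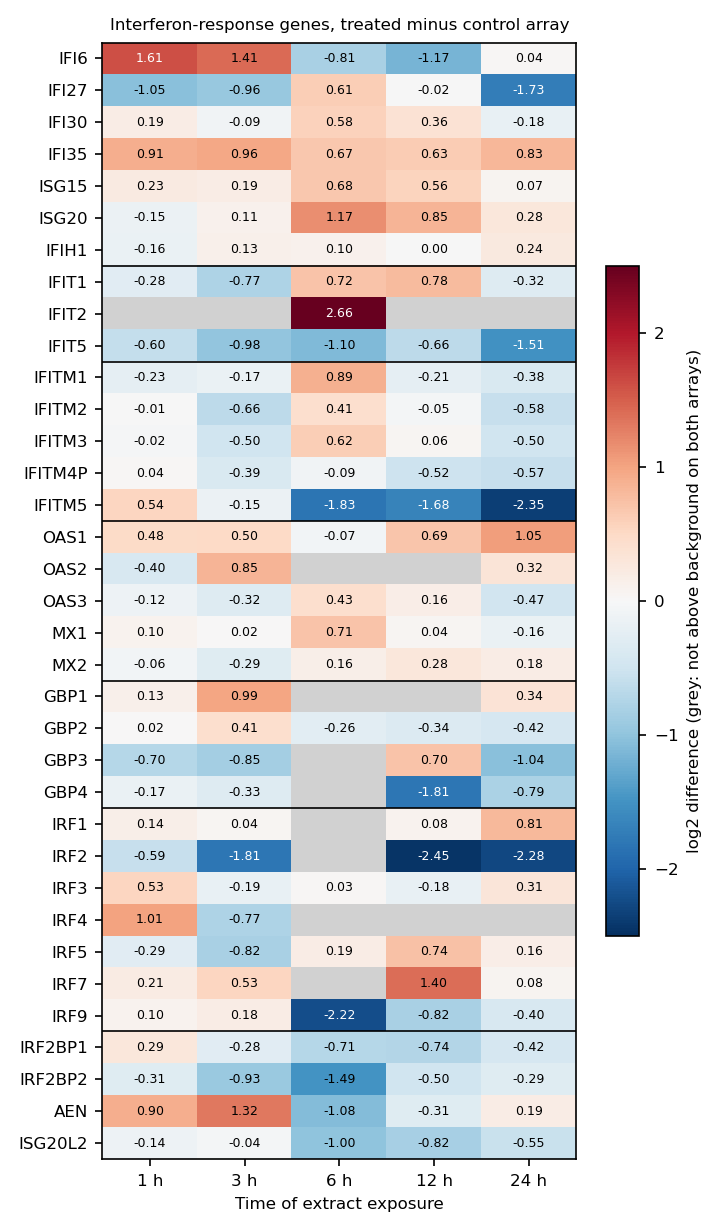
Log2 difference from the control array of each interferon-response gene (rows) at 1, 3, 6, 12 and 24 h of extract (columns), by its brightest probe; grey cells were not well above background on both arrays. Most cells lie within 1 log2 unit of the control, and IFI27, IFIT5, IFITM5 and IRF2 are the 4 rows at least 2-fold lower at 2 or more times.

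Of the 34 members measured at 2 or more times, IFI6 was the 1 member at least 2-fold higher at 2 or more of them, against 12.7% of 13418 genes, and IFI27, IFIT5, IFITM5 and IRF2 were the 4 members at least 2-fold lower at 2 or more, against 8.25%. A further 19 were 2-fold from the control at no time. The matching share of all genes was not computed, so nothing particular to the set is read from that count. A line of level against log2(hours + 1) over the 6 arrays was fitted with limma, with Benjamini-Hochberg adjustment over 13611 genes, which uses the scatter about the line as its error and places the control at 0 h. It called 0 of the 34 members tested and 0 genes in all (0%), with a smallest adjusted p of 0.305 among members and 0.242 among all genes. At an unadjusted p under 0.05, 0 members had a positive slope and 4 a negative slope, against 3.95% and 5.96% of genes. Those 4 were IFITM5, IRF4, IRF2 and IFIT5. The fit used levels that were not well above background as they stood. For IRF4 these were the levels of 6, 12 and 24 h and for IRF2 that of 6 h, so these slopes rest in part on such values.

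The effectors that act inside the cell are taken first. ISG15, a ubiquitin-like protein that is joined to other proteins during an antiviral response, lay at 2.99 in the control and at 3.22, 3.18, 3.66, 3.55 and 3.05 after 1, 3, 6, 12 and 24 h. Its differences of 0.23, 0.19, 0.68, 0.56 and 0.07 were all above 0 and each was smaller than the single-probe SD of its time. With a different background correction (normexp) the 6 h difference was -0.73, so its direction at that time depended on the processing.

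IFI6, a small mitochondrial and endoplasmic reticulum protein that opposes cell death and flavivirus replication, lay at -0.65 in the control and at 0.96, 0.76, -1.46, -1.82 and -0.62 after 1, 3, 6, 12 and 24 h. The arrays at 1 and 3 h stood above the control, those at 6 and 12 h stood under it, and the 24 h array lay at the control's level. The differences were 1.61 and 1.41 at 1 and 3 h, or 3.05-fold and 2.66-fold higher, each over 3 times the single-probe SD. At 6 h and 12 h they were -0.81 and -1.17 (2.24-fold lower at 12 h), closer to the SD of those times, and with the normexp background correction they were 0.50 and -0.33. IFI6 had 1 probe, so no second probe checks this course.

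IFI27, a related interferon-induced mitochondrial protein, is the member measured with most spots, since 10 copies of its main probe lay on each array. It stood at -0.84 in the control and at -1.89, -1.79, -0.23, -0.85 and -2.57 after 1, 3, 6, 12 and 24 h, with an SD between the 10 spots of 0.02 to 0.13. The 1, 3 and 24 h arrays were low, and the 6 and 12 h arrays were close to the control or above it. Its differences were -1.05, -0.96, 0.61, -0.02 and -1.73, so that the lowest level, at 24 h, was 3.32-fold under the control. A second probe gave -1.10, -0.96, 0.02, -0.52 and -1.95, low at the same 3 times. The probes overlap by 22 bases, so they report nearly the same end of the transcript and are not independent assays of it. IFI6 and IFI27 thus lay on opposite sides of the control at 1 and 3 h, although both promoters carry matches to the element.

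**Figure D2:**
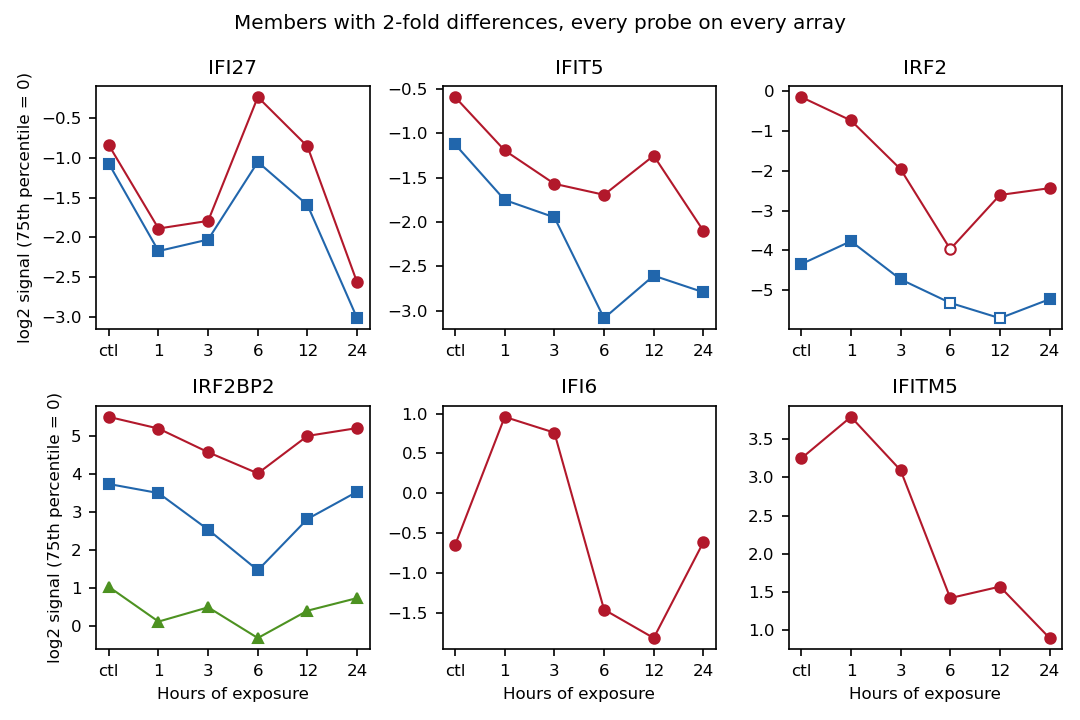
Relative log2 signal (level; 0 is the array's 75th percentile) on each of the 6 arrays for every probe, where it was well above background on any array, of the 5 members at least 2-fold from the control in the same direction at 2 or more times and of IRF2BP2; each line is 1 probe and open symbols were not well above background. Both IFI27 probes are lowest at 24 h, both IFIT5 probes lie under the control at all 5 times, and the brighter IRF2 probe runs from -0.16 in the control to -2.44 at 24 h.

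The IFIT proteins bind viral RNA that lacks the cap modifications of host messages. IFIT1 lay at -2.47 in the control and at -2.75, -3.24, -1.75, -1.69 and -2.79 after 1, 3, 6, 12 and 24 h. Its differences, between -0.77 and 0.78, were negative at 1, 3 and 24 h and positive at 6 and 12 h, and only the 3 h and 12 h values exceeded the single-probe SD. With the normexp background correction the 6 h difference of IFIT1 was 1.70. IFIT2 lay at -4.63 in the control and at -1.97 at 6 h, a difference of 2.66 (6.30-fold), and was not well above background at the other 4 times. There it was at least 2.63-fold, 2.27-fold, 1.32-fold and 3.37-fold under the control (1, 3, 12 and 24 h). The 6 h value rests on a single spot on the dimmest array, and the second IFIT2 probe was not well above background on any array. IFIT3 was well above background at 1 h (-5.84) and 3 h (-6.04) alone, and was at least 1.02-fold above the control at 1 h. Its difference from the control could not be measured at the other times.

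IFIT5, which binds a wider range of RNAs than its relatives, was the IFIT gene whose probes lay on one side of the control throughout. It stood at -0.59 in the control and at -1.19, -1.57, -1.69, -1.25 and -2.10 after 1, 3, 6, 12 and 24 h, and all 5 treated arrays were under the control. The differences were -0.60, -0.98, -1.10, -0.66 and -1.51, reaching 2.84-fold lower at 24 h, and the second probe gave -0.63, -0.82, -1.96, -1.48 and -1.67. The fitted change over 24 h was -1.15 ± 0.45 (SE), with an unadjusted p of 0.0357 and an adjusted p of 0.469 (limma), so the trend was not called. With the normexp background correction the 6 h difference of the brighter probe was 0.34, the opposite sign.

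The OAS enzymes make short oligoadenylates that switch on an RNA-degrading nuclease. OAS1 lay at -1.33 in the control and at -0.86, -0.84, -1.40, -0.64 and -0.28 after 1, 3, 6, 12 and 24 h. Its differences were 0.48, 0.50, -0.07, 0.69 and 1.05, and the 24 h array was 2.07-fold above the control (0.92 on the log2 scale with normexp, under 2-fold). OAS3 stood at 1.23 in the control and at 1.12, 0.92, 1.66, 1.40 and 0.76, with differences between -0.47 and 0.43 that did not exceed the SD at any time. Its second probe gave the opposite sign at all 5 times (0.33, 0.23, -0.68, -0.62 and 0.10), so no direction is given for OAS3. OAS2 and OASL were near the background, and OAS2 was measured at 1, 3 and 24 h with differences of -0.40 to 0.85.

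MX1, a GTPase that traps incoming viral particles, lay at -1.0 in the control and at -0.90, -0.98, -0.29, -0.95 and -1.16 after 1, 3, 6, 12 and 24 h. The treated arrays lay within 0.16 of the control except that of 6 h, where the difference was 0.71, under the SD of 0.77. The probes of MX2 took opposite signs at 1, 3, 6 and 12 h. IFIH1, the cytoplasmic sensor MDA5 of long double-stranded RNA, was the flattest of the named effectors, at -0.59 in the control and -0.75, -0.46, -0.49, -0.59 and -0.34 afterwards, with differences between -0.16 and 0.24.

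**Figure D3:**
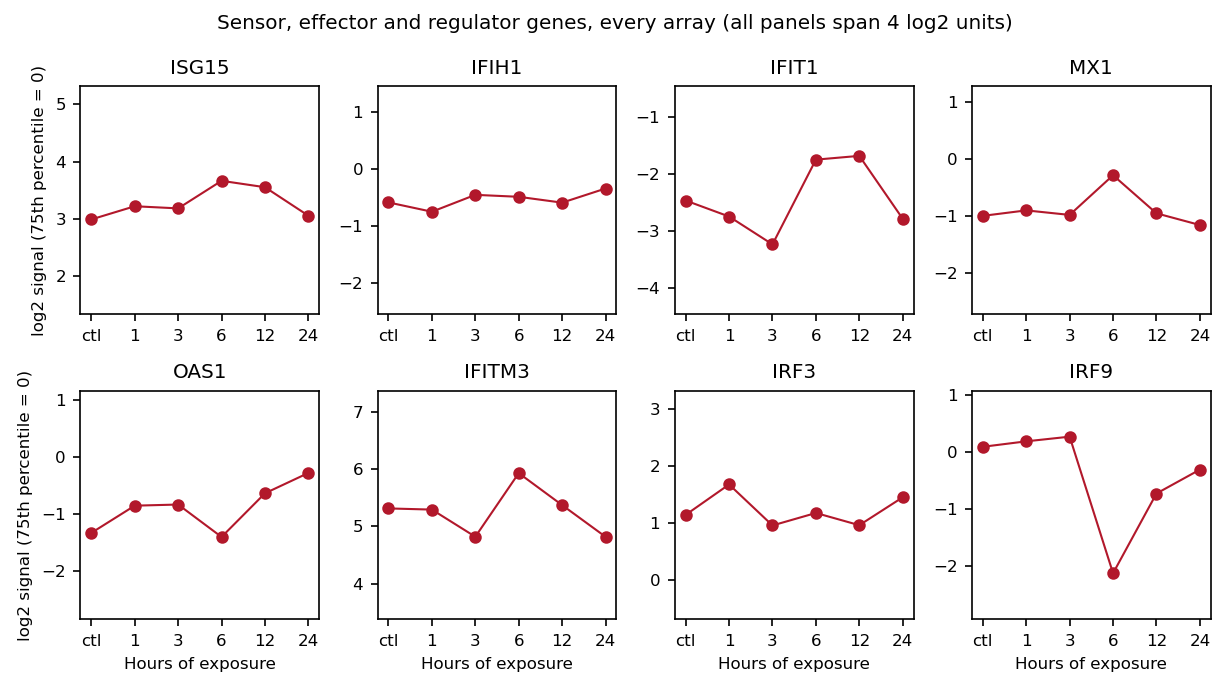
Relative log2 signal (level; 0 is the array's 75th percentile) of 8 sensor, effector and regulator genes on the 6 arrays; each panel spans 4 log2 units. ISG15, MX1, IFIH1, IFITM3 and IRF3 differ from their control level by at most 0.71, whereas the difference of IRF9 at 6 h is -2.22.

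The IFITM proteins sit in membranes and block fusion of entering viruses. IFITM1 lay at 0.60 in the control and at 0.37, 0.43, 1.48, 0.38 and 0.22 after 1, 3, 6, 12 and 24 h. IFITM2 stood at 5.07 in the control and at 5.05, 4.40, 5.48, 5.02 and 4.49, and IFITM3 at 5.32 and then at 5.30, 4.82, 5.93, 5.37 and 4.82. All 3 were highest at 6 h, where the differences were 0.89, 0.41 and 0.62, and lower than the control at 3 and 24 h. At 6 h IFITM2 and IFITM3 gave -0.37 and -0.18 with quantile normalization and -1.20 and -0.94 with the normexp background correction, which put IFITM1 at 0.01. The direction of these genes at 6 h therefore depended on the processing. The parallel course of IFITM2 and IFITM3 cannot be read as 2 measurements, because their probes overlap and match at 34 of 40 aligned bases. Capitals mark the longest run that they share, 17 bases.
IFITM2 probe, bases 1 to 40: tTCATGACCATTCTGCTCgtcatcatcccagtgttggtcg
IFITM3 probe, bases 21 to 60: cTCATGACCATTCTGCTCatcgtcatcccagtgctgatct

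IFITM5, which shares the IFITM fold but is known from osteoblasts, had the lowest 24 h difference of any measured member. It lay at 3.25 in the control, 3.79 at 1 h and 3.09 at 3 h, and at 1.42, 1.57 and 0.90 at 6, 12 and 24 h. The 3 late arrays were all under the 3 early ones. The differences were 0.54, -0.15, -1.83, -1.68 and -2.35, each of the last 3 over 2 times the SD, and the 24 h array was 5.10-fold under the control. The fitted change over 24 h was -2.87 ± 0.62 (SE) with an unadjusted p of 0.0018 and an adjusted p of 0.305 (limma). IFITM5 had 1 probe and no match to the element in its promoter.

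The GBP proteins are large GTPases induced mainly by interferon gamma that attack the membranes of intracellular microbes. GBP1 was dim, at -4.70 in the control and at -4.57, -3.71 and -4.36 after 1, 3 and 24 h, and was not well above background at 6 and 12 h. Its 3 h difference of 0.99, with 1.19 by the second probe, was the highest it reached, and was -0.01 with the normexp background correction. GBP2 lay at -2.31 in the control and at -2.29, -1.90, -2.57, -2.64 and -2.72, with differences between -0.42 and 0.41. GBP7 was well above background on the 6 h array alone, by 1 spot, at least 22.2-fold over the control.

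Members counted at a single time, named after their values were seen, were AEN at 3 h (1.32 higher) and 6 h (-1.08), IRF4 at 1 h (1.01), ISG20 at 6 h (1.17), IRF2BP2 at 6 h (-1.49), ISG20L2 at 6 h (-1.0), GBP4 at 12 h (-1.81) and GBP3 at 24 h (-1.04). Several of these were under 2-fold or of the other sign in other settings. With normexp, AEN at 6 h was -0.10, IRF4 0.20, ISG20 -0.33, ISG20L2 0.87, GBP4 0.64 and GBP3 -0.75, and the deposited value table gave IRF4 0.60. The second probe of GBP3 lay on the other side of the control at 24 h, at 0.17. AEN and ISG20L2 are exonucleases, as is ISG20, and IRF2BP2 is a corepressor partner of IRF2. All 3 probes of IRF2BP2 were under the control at every time, from -1.35 to -2.27 at 6 h. The members neither named with levels nor counted here, such as IFI35 and IFI30, gave differences between -0.82 and 0.96, and IFI35 was above the control at all 5 times (0.63 to 0.96).

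**Figure D4:**
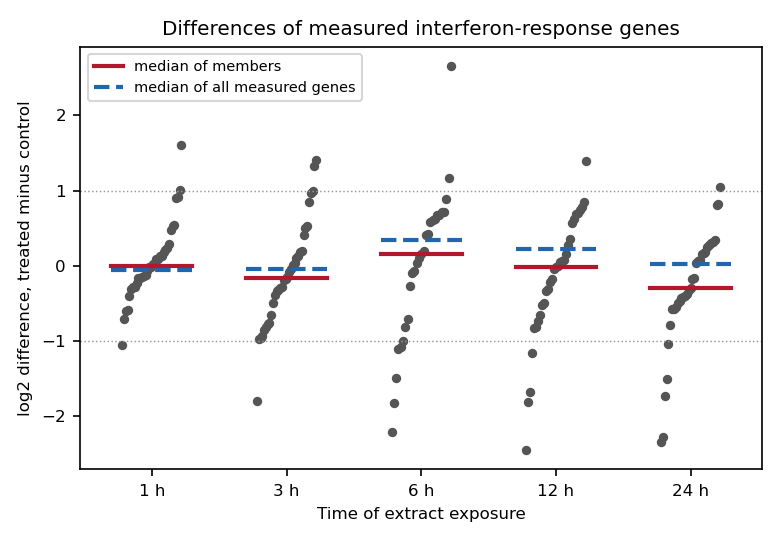
Log2 difference from the control of each measured member (points) at each time, with the median of the members and that of all measured genes. The members' median lies under that of all genes from 3 h to 24 h, by 0.13 to 0.32, and points outside 1 log2 unit in either direction are few at 1 and 3 h.

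Among the transcription factors, IRF1, the early activator of many interferon targets, lay at -3.04 in the control and at -2.91, -3.00, -2.96 and -2.23 at 1, 3, 12 and 24 h, and was not well above background at 6 h. Its 24 h difference of 0.81 was 1.76-fold and exceeded the SD of 0.69 slightly. The 12 h difference of IRF1 was 0.08, and 1.06 with the normexp background correction. IRF3, present in cells before any stimulus and activated by phosphorylation, lay at 1.14 in the control and at 1.68, 0.96, 1.18, 0.96 and 1.45, with differences between -0.19 and 0.53. IRF7, the factor that amplifies interferon production, was dim, at -5.55 in the control and -5.34, -5.02, -4.15 and -5.47 at 1, 3, 12 and 24 h, and was not well above background at 6 h. Its 12 h difference was 1.40, or 2.63-fold, and its second probe was not above background in the control and at least 3.57-fold above it at 12 h. At 24 h the second probe was at least 1.99-fold above the control, where the brighter probe gave a difference of 0.08. For 12 h, the deposited value table gave 0.89 for the brighter probe, under 2-fold.

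IRF9 (ISGF3G on the array), the DNA-binding subunit of the type I interferon complex, lay at 0.09 in the control and at 0.19, 0.27, -2.12, -0.73 and -0.31 after 1, 3, 6, 12 and 24 h. The 6 h array stood apart, with a difference of -2.22 (4.65-fold lower), and the other differences lay between -0.82 and 0.18. The normexp background correction gave -0.47 at 6 h, within the SD.

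IRF2, which competes with IRF1 for the same DNA element and restrains the response, was low at the later times by its brighter probe. It lay at -0.16 in the control and at -0.75, -1.97, -2.61 and -2.44 after 1, 3, 12 and 24 h. It was not well above background at 6 h, where it was at least 8.95-fold under the control. Every treated array was under the control, with differences of -0.59, -1.81, -2.45 and -2.28, and the 12 h array was 5.46-fold lower. With the normexp background correction the 12 h difference was -1.19. The second, dimmer probe gave 0.57, -0.38 and -0.88 after 1, 3 and 24 h, and the mean of both probes was -0.01, -1.09 and -1.58 at those times. The fitted change over 24 h was -2.76 ± 0.95 (SE), with an unadjusted p of 0.0206 and an adjusted p of 0.428 (limma).

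For the 9 members with a pair of probes that could be compared, the probes took the same sign in 22 of 34 gene-times and the opposite sign in 12, with a median gap of 0.56 and 5 gaps over 1. The members with a promoter match had medians of -0.16, -0.24, 0.62, 0.04 and -0.35 at 1, 3, 6, 12 and 24 h. Those with a promoter entry and no match had 0.24, -0.06, -0.86, -0.31 and -0.18. The gap between them was widest at 6 h, where 11 members with a match and 10 without were measured, and that is also the dimmest array. Of the 10 without a match, 5 were at least 2-fold lower at 6 h, against 1 of the 11 with a match and 10.0% of all genes. These counts depended on the background correction, since with normexp AEN (-0.10), IRF9 (-0.47) and ISG20L2 (0.87) of the 5, and IFIT5 (0.34) of the genes with a match, were no longer 2-fold lower. The 5 were AEN, IFITM5, IRF2BP2, ISG20L2 and IRF9. All but IRF9 are among the genes named at the opening as sharing only a prefix, so nothing about the element is read from these counts.

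Around the members lie the genes of the interferon pathway. Their differences at single times were not recomputed under the other processing settings, so how far they depend on the processing, also at 6 and 12 h, was not tested. Of 21 listed interferon genes, 16 were on the array, 9 of these were well above background on no array and 2 on all 6, where 61.5% of all named genes were. No ligand passed the trend test. At 6 h, 1 of the 2 that were measured was at least 2-fold above the control, from a dim probe on the dimmest array, against 22.9% of all genes. At 1, 3, 12 and 24 h it was 0 of 2, against 2.24%, 3.24%, 13.1% and 7.29% of all genes.

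Of the 15 receptor and signalling genes, 0 passed the trend test after adjustment (limma), with 0 positive and 2 negative slopes at an unadjusted p under 0.05 (3.95% and 5.96% of all genes). They held 3 genes at least 2-fold lower and 1 higher of 11 measured at 6 h, where 10.0% of all genes were lower and 22.9% higher. At 12 h, 3 were lower and 2 higher of 14 (7.81% and 13.1% of all genes), and at 24 h 3 were lower and 0 higher of 15 (9.29% and 7.29%). IFNGR1, the ligand-binding chain of the interferon gamma receptor, lay at 2.57 in the control and at 1.96, 2.0, -0.10, 0.55 and 0.36 after 1, 3, 6, 12 and 24 h. The 3 late arrays were far under the control, with differences of -2.66, -2.02 and -2.21. The fitted change was -2.49 ± 0.66 (SE), with an unadjusted p of 0.00563 and an adjusted p of 0.326 (limma). IFNGR2, its signalling chain, lay at 0.56 in the control and at 1.07, 0.73, -2.16 and -1.20 after 1, 3, 12 and 24 h, and was not well above background at 6 h. Both chains were thus at least 2-fold lower at 12 and 24 h, each by 1 probe.

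The chains of the type I receptor took another course. IFNAR1 lay at -2.29 in the control and at -2.14, -2.07, -1.30, -1.24 and -1.63, with differences of 0.15, 0.22, 0.98, 1.05 and 0.66, all above 0. IFNAR2 was near the background, at -4.43 in the control with differences of 0.60, 0.00 and -0.26 at 1, 3 and 24 h. Whether the receptor chains differ from each other was not tested, as each time had 1 array.

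**Figure D5:**
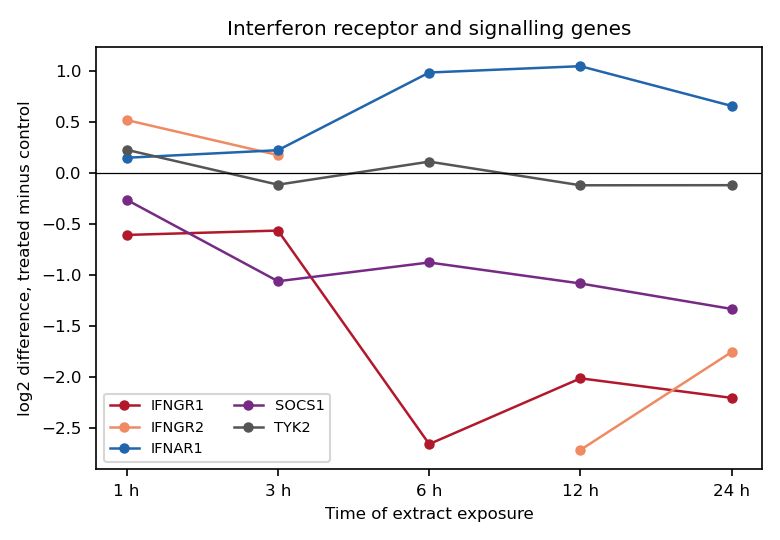
Log2 difference from the control of IFNGR1, IFNGR2, IFNAR1, SOCS1 and TYK2 at 1, 3, 6, 12 and 24 h, by the brightest probe of each; a missing point was not well above background. The differences of IFNGR1 and IFNGR2 lie between -2.72 and -1.76 at 12 and 24 h, where those of IFNAR1 are 1.05 and 0.66.

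The kinases and STAT2 lay nearer to the control by their brightest probes. JAK1 stood at -0.63 in the control and at -0.76, -0.87, -0.76, -1.13 and -0.79, and TYK2 at 2.18 and then 2.40, 2.06, 2.28, 2.05 and 2.05. The differences of these brightest probes stayed between -0.50 and 0.23. The second JAK1 probe, however, gave 0.04, 0.25, -1.68, -1.22 and 0.94 after 1, 3, 6, 12 and 24 h. The second TYK2 probe gave 1.18, 1.01, -0.06 and 1.42 at 1, 3, 12 and 24 h. STAT2 was dim, with differences of 0.16 to 0.84 where it was measured.

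Among feedback inhibitors, SOCS1, which blocks JAK kinases and is itself an interferon target, lay at 0.94 in the control and at 0.68, -0.12, 0.06, -0.15 and -0.40 after 1, 3, 6, 12 and 24 h. Every treated array was under the control, with differences of -0.27, -1.06, -0.88, -1.09 and -1.34. Its second probe gave 0.24, -0.32, -1.12 and -0.95 at 1, 3, 12 and 24 h. The probes of SOCS3 contradicted each other, with 1.61 and -2.97 at 3 h, so no direction is given for it.

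Of the sensors of foreign nucleic acid and their adaptors, 8 were tested for a trend and 0 called, with 2 positive and 0 negative slopes at an unadjusted p under 0.05 (limma; 3.95% and 5.96% of all genes). At 6 h, 2 of 7 measured were at least 2-fold higher and 0 lower, against 22.9% and 10.0% of all genes. The 12 h array had 3 higher and 0 lower of 7 (13.1% and 7.81% of all genes). At 1, 3 and 24 h, 1 of 8 was higher and 0 lower, where 2.24%, 3.24% and 7.29% of all genes were higher. TICAM1, the adaptor of a Toll-like receptor for double-stranded RNA, gave differences of -0.81 and -0.75 at 1 and 3 h and of 1.10 and 1.17 at 6 and 12 h. Its second probe gave -0.10 and 0.92 at 6 and 12 h. IKBKE, a kinase that phosphorylates IRF3 and IRF7, was 1.21, 1.24 and 1.61 above the control at 1, 3 and 24 h from a dim probe.

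Of the other interferon-induced genes, 29 were tested and 0 called, with 0 positive and 3 negative slopes at an unadjusted p under 0.05 (limma), against 3.95% and 5.96% of all genes. At 6 h, 2 of 21 measured were at least 2-fold higher and 1 lower, against 22.9% and 10.0% of all genes. At 12 h it was 2 higher and 3 lower of 26, against 13.1% and 7.81%. At 24 h, 0 of 29 measured were at least 2-fold higher and 5 lower, against 7.29% and 9.29% of all genes. EIF2AK2, the kinase PKR that halts translation upon double-stranded RNA, lay at 1.14 in the control and at 0.93, 0.83, 0.49, -0.16 and -0.27 after 1, 3, 6, 12 and 24 h, under the control on all 5 treated arrays. Its fitted change was -1.53 ± 0.39 (SE), with an adjusted p of 0.326 (limma). TRIM5, which recognises retroviral capsids, was 1.63 and 1.14 above the control at 1 and 3 h by its brightest probe and 0.09 and 0.01 by the other. SHISA5, an endoplasmic reticulum protein linked to cell death, was 1.74 and 1.37 above the control at 6 and 12 h, and 2 further probes gave 0.00 and 1.14 at 6 h.

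Of the 19 antigen-presentation genes, 0 were called and 0 had an unadjusted p under 0.05 in the trend test (limma), but the fits of HLA-C, PSME1 and PSME2 say nothing, since their brightest probes were saturated on 5, 3 and 6 of the 6 arrays. Of the genes measured, 2 of 14 were at least 2-fold higher at 6 h, 1 of 17 at 12 h and 1 of 15 at 24 h. All genes gave 22.9%, 13.1% and 7.29% at these times, and 0 of the list were lower. PSMB10, a subunit of the immunoproteasome, was 2.43 and 1.60 above the control at 6 and 12 h and at the control's level at 24 h (-0.02). CD74, the invariant chain of class II molecules, was 1.03 above the control at 1 h and 2.0 at 24 h, with 0.97, 0.29 and 0.72 between. PSME1, a subunit of the proteasome activator, was 1.19 above the control at 6 h by its brightest probe, unsaturated on both of those arrays, and 0.32 by its second probe.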

How the data were processed

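Per the labels' protocols, RNA came from an RNeasy kit and was amplified and labelled with an Agilent linear amplification kit for low RNA input. The extraction text speaks of mouse liver besides HepG2, and all 6 samples are labelled HepG2. Cy5 is the dye in the labels, but green is the one channel in the scanner files. The deposited scanner files give an intensity for each spot, of which the processed signal was used. The scanner software's version and the probes' genome build are not given in these sources. The authors' deposited value table of 35646 probes holds intensity values that lay within 1 unit of median signal minus local background for 99.4% of probes. Its column medians were 161.5 (control), 226, 391, 40, 86 and 297.5, and its further scale is not stated.

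From 41000 probes, 105 were left out for outlier flags, the 1639 control spots of an array were dropped, and repeated spots were averaged. Of the probes, 26789 carried 1 gene symbol, 14166 none and 45 several, and the last 2 kinds named no gene. Log2 signals were scaled to each array's 75th percentile. The trend was tested with limma 3.58.1 (R 4.3.3; at least 3 arrays above background; 4 residual degrees of freedom; threshold 0.05, Benjamini-Hochberg). The fit was also run on simulated data with independent noise and no shift shared by an array. How many simulated trends it called is not given here. Python 3.11.15 with pandas 2.3.3 did the rest.

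Levels per array are printed for members at least 2-fold from the control in the same direction at 2 or more times, and for ISG15, IFI6, IFI27, IFIH1, IFIT1, IFIT2, IFIT3, IFITM1, IFITM2, IFITM3, OAS1, OAS3, MX1, GBP1, GBP2, IRF1, IRF2, IRF3, IRF7 and IRF9. Pathway genes are named by the same 2-fold rule, and STAT2, JAK1, TYK2, IFNAR1, IFNAR2 and IFNGR1 in any case. A fold with "at least" sets the bright level against the higher of the dim probe's own level and the lowest level above background on its array. A probe could miss the background test above that lowest level, as IRF1 did at 6 h (-2.86 against -3.32). Such a fold is therefore not a strict lower limit. Some genes and sequences are not reported here. Members and lists were chosen with earlier results of these data known. With 1 array per group, their number limits the precision. Alternatives were quantile normalization, the normexp background correction (offset 50), the deposited value table, no background filter, the mean of a gene's probes, and other settings of the trend.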

Additional observations from a re-analysis of the deposited data

Results flagged for a closer look

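IFI6 lay on both sides of the control by at least 2-fold, at 1.61 log2 units above it at 1 h and at -1.17 at 12 h. AEN did so as well, with 1.32 at 3 h and -1.08 at 6 h. Each time was 1 array and 1 probe, so the difference between the times was not tested. The later array of each pair is 1 of the 2 dimmest, with a 75th percentile of 374 signal units at 12 h and 139 at 6 h, and the part of that brightness was not tested. With the normexp background correction, the 12 h difference of IFI6 was -0.33 and the 6 h difference of AEN was -0.10.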

How the results depend on the processing

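Of 795 differences of single members recomputed under 5 alternatives, 757 moved by less than the single-probe SD, 34 moved by more, and 4 that had been at least 2-fold changed sign. The 757 include all 159 recomputed without the background filter, which could not move, since dropping the filter alters no measured difference. The mean of a gene's probes likewise could not move a member with 1 probe. With normexp alone, 27 of 159 moved and 4 changed sign. The 4 came with the normexp background correction: GBP4 at 12 h (0.64), and at 6 h IFIT5 (0.34), ISG20 (-0.33) and ISG20L2 (0.87). Counts of members at least 2-fold higher or lower moved by over 1.5 times as follows. Quantile normalization gave 1 higher at 1 h, 3 lower at 3 h and 1 higher at 6 h. Normexp gave 1 higher and 0 lower at 1 h, 4 higher and 2 lower at 12 h, and 0 higher at 24 h. The deposited value table gave 3 lower at 6 h and 0 higher at 12 h. Without the background filter there were 3 lower at 1 h, 2 lower at 3 h, 10 higher at 6 h and 7 lower at 12 h. The cause was not tested. In the limma trend all 13 alternatives called 0 members and 0 genes, with 1 to 5 members at an unadjusted p under 0.05 (4 in the report), from 485 (normexp) to 2829 genes (without the 24 h array; 1348 in the report), and the smallest adjusted p among members at 0.08, without the 6 h array. No paired analysis was possible because each group holds 1 array. Signal near the background limits the 6 h and 12 h arrays, where 16 and 13 of the 44 genes were not detected.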

Other observations

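Less bright probes of 2 class I antigen-presentation genes were above the control at all 5 times, and were chosen after their values were seen. A probe of HLA-C lay at 0.91 in the control and at 2.46, 2.59, 1.67, 1.73 and 3.06 after 1, 3, 6, 12 and 24 h, and a probe of HLA-E at 0.67 and then 2.06, 2.18, 1.19, 1.14 and 2.54. The longest run of bases that these probes share is 6. Brighter, unsaturated probes of HLA-E lay at 4.47 in the control and 4.97 at 24 h by one probe and at 4.53 and 4.40 by another. The probes of HLA-E thus gave different sizes of difference from the control, and the cause was not tested.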
